A study of Mus musculus with 22 samples.

Results

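Otx1, Otx2, Emx2, Six3, En1, En2, Pax5, Irx2 and Irx3 encode transcription factors that give the vertebrate neural tube its regions along the head-to-tail axis. They were chosen by name as listed patterning genes with a probe on the array, and are 9 of 20129 gene symbols that its RefSeq probes named. Total RNA of 22 fractions was measured by Transcriptome Tomography, in which a brain is sliced along 1 body axis and neighbouring slices are pooled as a fraction. The brains were those of 3 male C57BL/6J mice, an inbred strain, with no treatment named in the labels, at 7 days after birth by the sample titles and 3 days by the age field of the same labels. A different mouse gave each series, with 10 fractions cut coronally, 6 horizontally and 6 sagittally, so a series is also a single animal and no fraction had a replicate. The labels give a slab of 100 slices of 5 µm, while a thicker fraction is named in the methods of the study, and fraction numbers are used here in place of lengths. The last coronal fraction and the first sagittal fraction pooled 2 slabs and the last sagittal fraction 3, and every other fraction was 1 slab. Each fraction was hybridised to 1 array, so the number of arrays limits the precision.

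Which end of the brain was numbered as fraction 1 is not given in the labels. In the coronal series, Hoxb5, a gene of the posterior hindbrain and spinal cord, was highest in fraction 1 at 4.44, and Cdhr1, a gene of olfactory bulb projection neurons, was highest in fraction 10 at 5.16. These levels are log2 of the processed spot intensity minus the array's 75th percentile, so 0 is the 75th percentile of an array and each unit is a doubling. All 5 neuron markers examined (Snap25, Tubb3, Map2, Rbfox3 and Syt1) were well above background in every coronal fraction, with levels from 2.69 to 8.54. They were not even along the series, since 4 of the 5 passed a limma test of change along it. Tubb3 (-1.01), Map2 (-0.96) and Syt1 (-1.50) were lower in fractions 1 to 3 than in the rest, in log2 units. Snap25 did not pass (adjusted p = 0.203) and was highest in fraction 2, at 8.54, and lowest in fraction 3, at 4.85. The summed level of the 5 markers was likewise highest in fraction 2 and lowest in fraction 3, at 509 and 199 times the 75th percentile. Their part in the levels of the patterning genes was not tested. On 7 arrays (coronal fractions 1 and 2, horizontal fractions 1 to 3, sagittal fractions 1 and 3) the slope of the spike-in control RNAs was below 0.9. The arrays lay on 4 slides, and coronal fractions 1 and 3 to 8 shared 1 slide, fraction 2 lay on another, and fractions 9 and 10 shared a slide with the whole sagittal series.

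Otx1 and Otx2 are homeobox genes of the forebrain and midbrain, and the posterior limit of Otx2 sets the position of the midbrain-hindbrain boundary in the embryo. Emx2 patterns the dorsal telencephalon and cerebral cortex, and Six3 is required for the most anterior forebrain and eye. En1, En2 and Pax5 act at the midbrain-hindbrain boundary, from which the tectum and cerebellum form, and Irx2 and Irx3 are Iroquois genes expressed in the midbrain, hindbrain and thalamus. After birth several of them persist in particular cells, as Otx2 does in choroid plexus epithelium and En2 in the cerebellum.

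The members peaked at different places along the coronal series. The peak is the fraction with the highest level, and the onset and end are the lowest- and highest-numbered fractions within 1 log2 unit of it. Otx2, En2 and Pax5 peaked in fraction 2, En1 in fraction 3, Irx2 and Irx3 in fraction 4, Six3 and Otx1 in fraction 7 and Emx2 in fraction 9. For Otx2, En2, Irx2, Irx3 and Six3 the peak stood above the next highest fraction by 0.34 to 0.56 log2 units, more than 2 times the spot error of such a gap. For Emx2, Otx1, Pax5 and En1 that gap was 0.02 to 0.36 log2 units and did not reach 2 times the error, so their peak fractions were not separated from the next highest by that measure. The spot error is the median SD between spots of repeated probes at that brightness. It covers printing and reading of 1 array and not the difference between animals.

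**Figure D1:**
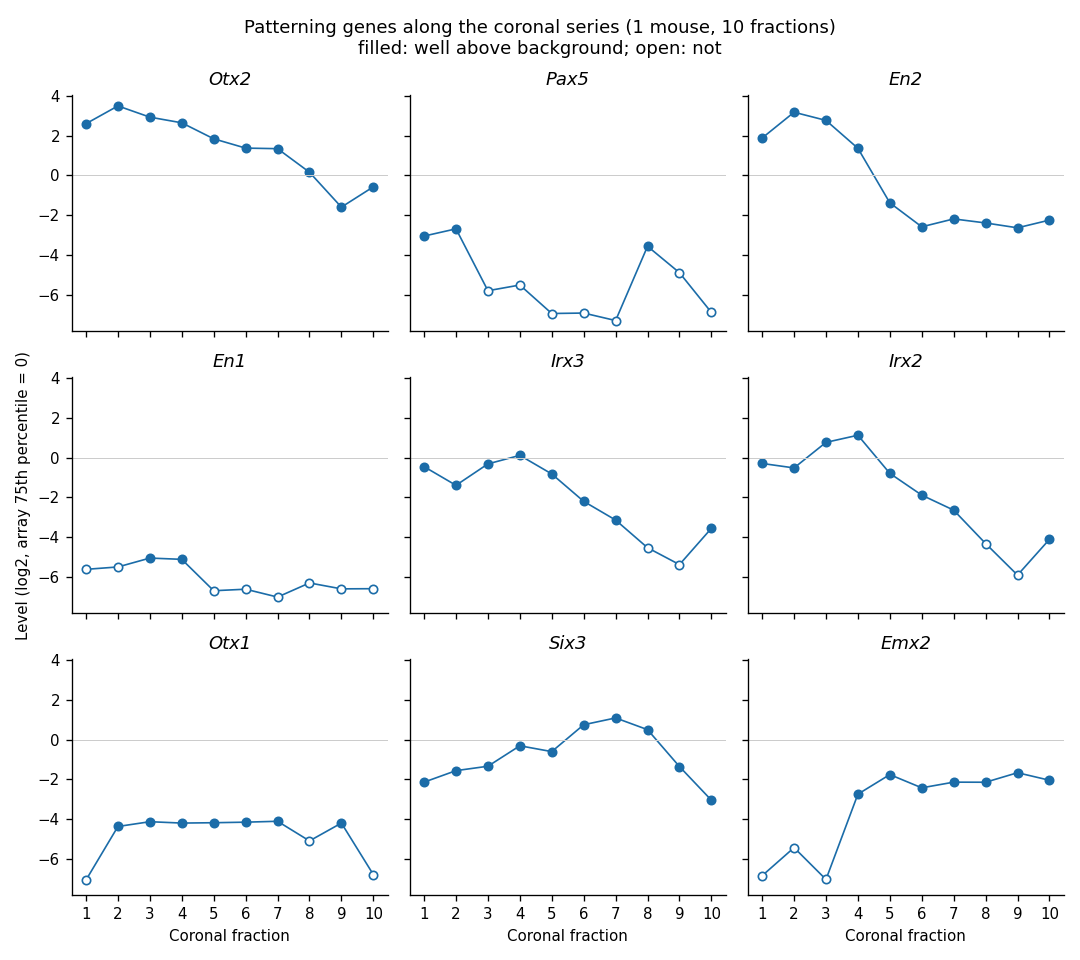
The level of each gene (vertical axis, log2, array 75th percentile = 0) is plotted against coronal fraction 1 to 10 (horizontal axis), 1 array a point, with filled points well above background and open points not. Otx2 and En2 are highest in fraction 2, at 3.49 and 3.17, and Emx2 has open points in fractions 1 to 3 and filled points from fraction 4.

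**Figure D2:**
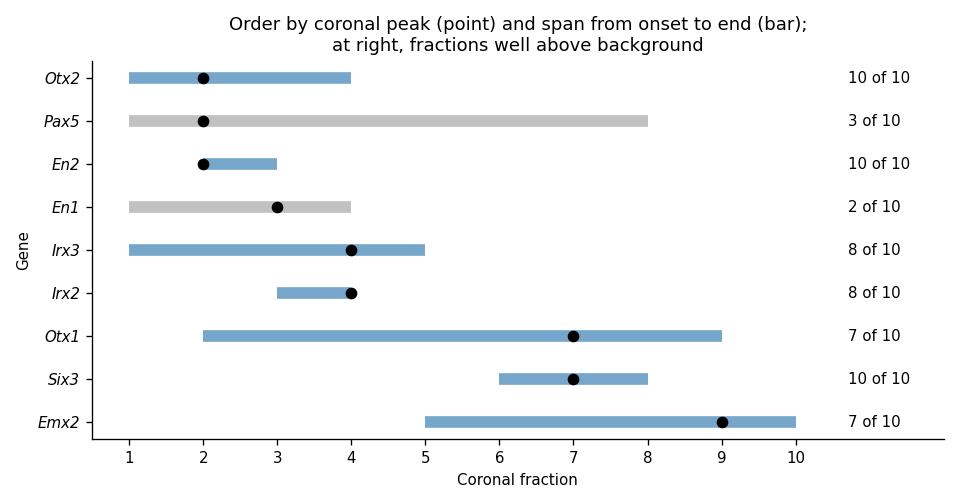
The peak (point) and the span from onset to end (bar) are drawn on the coronal fractions (horizontal axis), with the genes in order of peak and then onset. The number of the 10 fractions well above background stands at right; it is 3 for Pax5 and 2 for En1, whose bars are grey.

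Level changed with coronal position for 7 of the 8 members that could be tested, those well above background somewhere in every series (limma, linear and quadratic terms, Benjamini-Hochberg adjusted over 39621 probes). The same test called 19.8% of all probes. En1 was outside this set, because 3 of the 22 fractions had it well above background, none of them horizontal. The residual spread came from all 22 arrays around their fitted curves with 13 residual degrees of freedom, so the p-values rest on the smoothness of the series and not on replicate animals. A lower level in a fraction cannot be told apart between fewer cells of a type and less RNA per cell. Fitted to the coronal arrays alone the call held for 2 members, Otx2 and En2, and with the slide as a block for 4, Otx1, Emx2, Six3 and En2. On the arrays of in-range slope it held for 5, with Otx1 (adjusted p = 0.0533) and Emx2 (0.0686) lost. On coronal fractions 1 and 3 to 8 alone, which shared a slide, it also held for 5, with Emx2 and En2 lost.

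Otx2 was present in all 10 coronal fractions, between -1.59 in fraction 9 and 3.49 in fraction 2, with 1.37 in fraction 6 and 0.16 in fraction 8. The highest and lowest fractions differed by 33.8-fold, with both well above background. Otx2 passed the coronal test (limma adjusted p = 0.00108), with a linear term of -4.59 log2 units (SE 0.61). The linear term is the slope of the fit times the length of the series, beside which the curve has a quadratic term, so it is not the difference between the end fractions. Otx2 was also above 1 in every sagittal fraction, from 1.13 to 2.70, and in 5 of 6 horizontal fractions, with -0.12 in the last. Choroid plexus is a known source of this gene, and its 6 markers, all with a probe, summed to 2.46 times the 75th percentile in coronal fraction 1 and to 254 in fraction 3. In fraction 1 Ttr, the transthyretin of choroid plexus, was at its lowest, 0.17, while Otx2 was at 2.60. In fractions 6 and 7 Ttr stood at 7.26 and 7.62 and Otx2 at 1.37 and 1.34. Ttr dominated the sum, with 7.90 in fraction 3, where Folr1, the next highest of the 6, was at 3.04. The markers did not run alike. Clic6, Kcnj13 and Aqp1 were also lowest in fraction 1, while Folr1 and Kl were lowest in fraction 9, as Otx2 was. Kl was the 1 marker of the 6 that passed the coronal test (limma adjusted p = 0.0437), with a linear term of -1.65 log2 units. The part of choroid plexus in the Otx2 levels was not tested. With the slide as a block the coronal call was lost (adjusted p = 0.140).

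Otx1 ran near the limit of the arrays. It was well above background in 7 of 10 coronal fractions, with levels from -4.36 to -4.10 in fractions 2 to 7 and 9, and not in fractions 1, 8 and 10. The plateau differed by less than the spot error at that brightness, 0.37 log2 units. Its highest level was at least 2.72-fold above the bound of fraction 1. The coronal call (adjusted p = 0.00641) came with a linear term of -0.15 log2 units (SE 0.53), and it was lost under normexp background correction (adjusted p = 0.796). Otx1 minus Otx2 passed the coronal test (adjusted p = 0.00558), in a fit that included 3 Otx1 levels not well above background. The fitted range of this difference was 4.65 log2 units and that of Otx2 alone 4.64. The call was lost on the coronal arrays alone (0.0625) and on the arrays of in-range slope (0.196).

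Emx2 stood at -6.83, -5.42 and -7.02 in coronal fractions 1 to 3, none of them well above background, and between -2.74 and -1.66 in fractions 4 to 10. The step from fraction 3 to fraction 4 was at least 3.04 log2 units, taken from the bound of fraction 3. The cut between fractions 3 and 4 was taken from the Emx2 levels themselves. The separation of the 2 sides is therefore a description and not a test, and how many probes separate at such a cut was not counted. Fractions 4 to 10 averaged at least 10.97-fold above the bound of fractions 1 to 3. In fractions 4 to 10 the levels spanned 1.08 log2 units, and Emx2 was well above background in all 6 horizontal fractions (-3.59 to -1.95) and all 6 sagittal fractions (-3.29 to -1.83). Emx2 passed the coronal test (limma adjusted p = 0.00146), with a fit that runs through 3 levels that were not well above background. On coronal arrays alone it missed the threshold (adjusted p = 0.0535).

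Six3 rose to the middle of the series and fell again. It was at -2.13 in fraction 1, 1.09 in fraction 7, 0.50 in fraction 8 and -3.04 in fraction 10, and all 10 fractions were well above background. The peak lay 17.5-fold above fraction 10. It passed the coronal test (limma adjusted p = 0.00559) with a linear term of 0.31 log2 units (SE 0.62). Its antisense neighbour Six3os1 also peaked in fraction 7, at -0.41, but did not pass the coronal test (adjusted p = 0.128).

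En2 was high at the low-numbered end and low elsewhere. It stood at 1.88, 3.17, 2.76 and 1.36 in coronal fractions 1 to 4 and between -2.63 and -1.38 in fractions 5 to 10, with all 10 well above background. The cut between fractions 4 and 5 was taken from the En2 levels themselves. The separation of the 2 sides is therefore a description and not a test, and how many probes separate at such a cut was not counted. From fraction 4 to fraction 5 the level dropped by 2.74 log2 units, or 6.67-fold, and the highest and lowest fractions differed by 55.8-fold. En2 passed the coronal test (limma adjusted p = 0.00125), with a linear term of -6.38 log2 units (SE 0.89). The call was lost on coronal fractions 1 and 3 to 8 alone, which shared a slide. The 8 cerebellum markers summed to 153 to 276 times the 75th percentile in fractions 1 to 3, to 26.5 to 100 in fractions 4 to 6 and to 21.3 to 44.2 in fractions 7 to 10, and their part in the En2 profile was not tested. Among these markers Pcp2, a Purkinje cell gene, was at 6.70 in fraction 3 and 0.02 in fraction 9.

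En1, the close relative of En2, was well above background in coronal fractions 3 and 4 at -5.05 and -5.11, and in sagittal fraction 4 at -4.77. The other fractions lay between -7.36 and -5.49 and were not well above background, so the order of their levels is not informative. En1 and En2 were highest in neighbouring coronal fractions, 3 and 2. With En1 not well above background in 8 of the 10 coronal fractions, the difference of the pair was not measured along the series.

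Irx2 and Irx3 were highest in coronal fraction 4, at 1.12 and 0.11, and fell towards the higher-numbered end. Irx2 stood at -0.30, -0.52 and 0.76 in fractions 1 to 3, at -2.64 in fraction 7, and at -5.90 in fraction 9, where it was not well above background. Irx3 followed with -0.46, -1.39 and -0.32 in fractions 1 to 3, -3.14 in fraction 7 and -5.38 in fraction 9, likewise not above background. Their peaks were at least 86.3-fold and 42.8-fold above the bound of fraction 9. Both passed the coronal test, with adjusted p = 0.00265 for Irx2 and 0.00618 for Irx3, and both lost it with the slide as a block (0.104 and 0.0896). The 2 genes tracked each other over the 22 fractions with Pearson's r of 0.97, and with 0.98, 0.94 and 1.00 within the coronal, horizontal and sagittal series. These are descriptions, since the fractions of a series come from 1 brain and share their arrays' depth. Irx2 minus Irx3 passed the coronal test (limma adjusted p = 0.0247), with a linear term of -1.24 log2 units (SE 0.34). This difference was lost without fraction 9 (0.0671), without fraction 10 (0.0621), with the other Irx2 probe (0.856), with the slide as a block (0.672), under normexp (0.152), on the coronal arrays alone (0.118) and on the arrays of in-range slope (0.0539).

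The 250 bases before their starts are shown because Irx2 and Irx3 had the most alike profiles of the 9 genes. They were read from RefSeq promoters of GRCm38.p6, which held 7 of the 9 members. Searched on both strands, neither held TAATTA, the letters bound by many homeodomain proteins, TAATCC, those bound by the Otx class, or TATAAA. That says only that these letters are not in these windows. The GC content was 68.4% for Irx2 and 56% for Irx3, against a median of 52.4% over 32851 promoters. The Irx2 window was chr13:72628570-72628819 on the plus strand and the Irx3 window chr8:91801655-91801904 on the minus strand, 5′ to 3′ on the gene's strand.
Irx2: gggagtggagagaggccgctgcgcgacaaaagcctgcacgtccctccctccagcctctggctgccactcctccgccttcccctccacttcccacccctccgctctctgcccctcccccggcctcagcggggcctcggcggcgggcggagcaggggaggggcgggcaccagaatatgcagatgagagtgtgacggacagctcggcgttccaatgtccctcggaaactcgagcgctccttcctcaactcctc
Irx3: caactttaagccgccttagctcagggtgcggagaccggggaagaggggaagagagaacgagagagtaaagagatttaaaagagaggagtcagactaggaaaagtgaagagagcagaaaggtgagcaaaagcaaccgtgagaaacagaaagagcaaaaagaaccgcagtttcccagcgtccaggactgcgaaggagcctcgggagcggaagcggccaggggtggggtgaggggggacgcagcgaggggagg

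Of the members with a promoter, Otx2 was the only gene with matches to the searched letters, in 2 of its 4 windows. The window chr14:48665110-48665359 on the minus strand held TAATTA at 3 places and TAATCC, read on the other strand as GGATTA, at 1, and these are in capitals. Over the 32851 promoters read, which did not cover every chromosome, 4.84% held TAATTA, 6.25% TAATCC and 12.4% TATAAA. A match is a description of the sequence and no evidence of binding. The Emx2 window, chr19:59458440-59458689 on the plus strand, is shown for the gene that was not well above background before fraction 4 and was from there on; it had no match, 67.2% GC and 24 CpG dinucleotides, against a median of 6.
Otx2: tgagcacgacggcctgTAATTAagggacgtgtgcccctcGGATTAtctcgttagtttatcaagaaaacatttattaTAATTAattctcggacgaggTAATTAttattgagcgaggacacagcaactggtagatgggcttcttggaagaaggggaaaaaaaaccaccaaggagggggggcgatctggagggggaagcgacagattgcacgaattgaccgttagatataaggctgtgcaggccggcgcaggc
Emx2: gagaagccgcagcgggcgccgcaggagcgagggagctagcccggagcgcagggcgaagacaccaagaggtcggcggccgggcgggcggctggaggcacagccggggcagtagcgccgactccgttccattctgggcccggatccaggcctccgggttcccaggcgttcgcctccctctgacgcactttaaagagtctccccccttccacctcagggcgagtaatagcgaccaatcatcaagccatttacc

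Pax5, a boundary gene that also directs B cell fate, was the 1 tested member that did not pass (adjusted p = 0.153). It was well above background in coronal fractions 1, 2 and 8, at -3.04, -2.68 and -3.56, and in no other coronal fraction. The other RefSeq probe of Pax5 was well above background in 0 of 10 coronal fractions and could not be tested. That probe was well above background only in horizontal fraction 2 (-4.63) and sagittal fraction 3 (-4.53), both on arrays with a slope below 0.9. By the first probe, over all series, each of the 7 arrays with a spike-in slope below 0.9 had Pax5 well above background, as did 2 of the 15 others. Its levels were -3.61 to -1.96 on those 7 arrays and -7.28 to -3.56 on the others. Over the 22 fractions its level followed the spike-in probe a107 with r of 0.88, against a median r of 0.07 over all probes tested, and En2 gave 0.20. Over the 15 other boundary genes with a probe the r with a107 ran from -0.63 to 0.89 with a median of 0.08, and 3 of them, Pax2, Fgf8 and Lmx1b, were above 0.7. What part the spike-in slope had in the Pax5 levels was not tested. Of 6 B cell genes, 5 had a probe, and their summed level was 2.91 to 3.91 times the 75th percentile in fractions 1 to 3, 0.860 to 1.80 in fractions 4 to 6 and 0.594 to 1.28 in fractions 7 to 10. Without coronal fraction 8 Pax5 passed the coronal test (adjusted p = 0.0361), as it did without fraction 10 (0.0493).

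**Figure D3:**
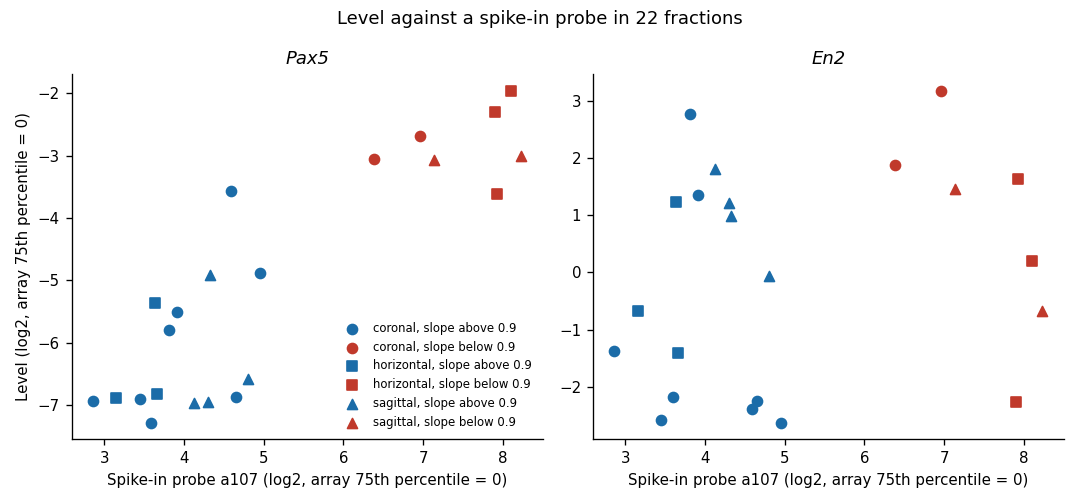
The level of Pax5 (left) and En2 (right) is plotted against the level of the spike-in probe a107 (both log2, array 75th percentile = 0) for 22 fractions, with red marks for arrays whose spike-in slope was below 0.9 and shapes for the series. Pax5 lies between -3.61 and -1.96 on the red arrays, and En2 covers -2.27 to 3.17 on the same arrays.

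Grouped into zones, fractions 1 to 3 were compared with the mean of fractions 4 to 6 and 7 to 10, and likewise for each other zone. In fractions 1 to 3 Otx2, En2, Irx2 and Irx3 were higher and Emx2 lower, 5 of 8 members, where the test called 26.9% of all probes, 13% higher and 13.9% lower. En2 was higher by 4.22 log2 units (SE 0.59, adjusted p = 0.000312) and Emx2 lower, at -4.28 (SE 0.32, adjusted p = 2.53e-06). None of the 3 Emx2 levels was well above background, and with them at their bounds the difference was -3.43. Otx2 was higher by 2.11 (SE 0.50), Irx2 by 2.36 (SE 0.63) and Irx3 by 1.84 (SE 0.50), with adjusted p of 0.00735, 0.0139 and 0.0151. Otx2 lost this call without fraction 2 (0.0524) and Irx3 without fraction 1 (0.0567). Otx2 and Irx2 lost it with the slide as a block (0.0663 and 0.0600), where Six3, lower there, was called (0.0212), Irx2 and Irx3 on the coronal arrays alone (0.0723 and 0.0707), and with arrays of in-range slope alone Emx2 was the 1 member still called. In that last setting, for every zone, fractions 1 to 3 were represented by fraction 3 alone, where Emx2 was not well above background, and this lone array was assumed to vary like the others.

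In fractions 7 to 10 the directions were opposite, with Emx2 higher by 2.37 log2 units (SE 0.30, adjusted p = 0.00092) and Otx2, En2, Irx2 and Irx3 lower. The test called 4.27% of all probes, 2.14% higher and 2.13% lower. Irx2 was at -3.97 (SE 0.59, adjusted p = 0.00234), Irx3 at -3.30 (SE 0.47, 0.00182), En2 at -3.23 (SE 0.55, 0.00499) and Otx2 at -2.64 (SE 0.47, 0.00625). Neither Irx2 nor Irx3 was well above background in fractions 8 and 9. With these levels at their bounds the differences were -3.82 for Irx2 and -3.29 for Irx3. With the Emx2 levels of fractions 1 to 3 at their bounds its difference was 1.95. Emx2 was the 1 member still called on the coronal arrays alone and on the arrays of in-range slope, where the adjusted p of the other 4 members was 0.0563 to 0.0933 and 0.0832 to 0.130. With the slide as a block Emx2 and Irx3 were called, and Otx2 (0.160), En2 (0.0950) and Irx2 (0.0595) were not. In fractions 4 to 6 the 1 member called was Emx2, higher by 1.90 log2 units (SE 0.32, adjusted p = 0.017), where the test called 4.41% of all probes, 3.06% higher, and the difference was 1.48 with the levels of fractions 1 to 3 at their bounds. It was lost without fraction 5 (0.162) or fraction 6 (0.0843), under normexp, on the coronal arrays alone (0.186) and on the arrays of in-range slope. Six3 was higher there by 1.13 (SE 0.67) and did not pass (0.246). The 3 zones share fractions, so their calls are not independent of each other.

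**Figure D4:**
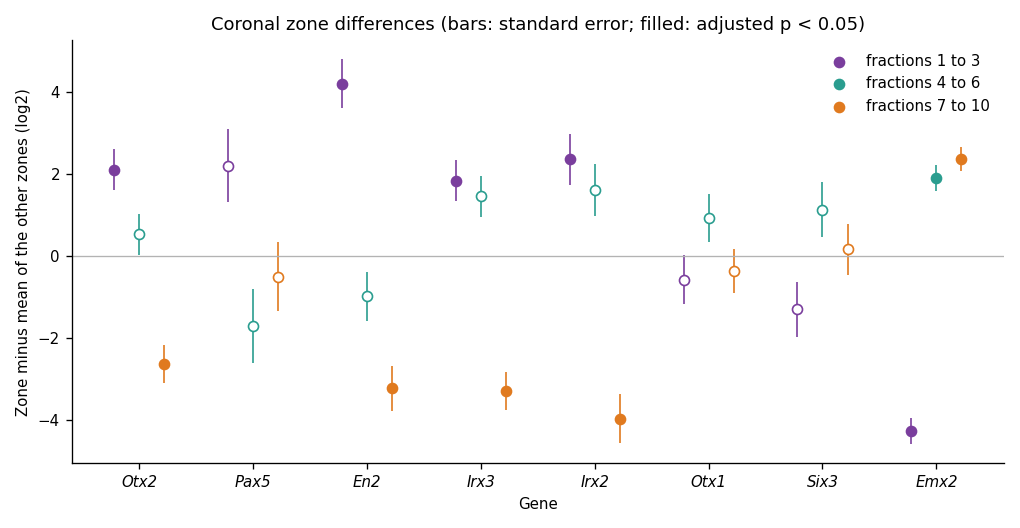
Each point is the level of a zone of the coronal series minus the mean of the other zones (vertical axis, log2) for 8 genes (horizontal axis), with bars for the standard error and filled points for an adjusted p below 0.05. En2 and Emx2 stand at 4.22 and -4.28 in fractions 1 to 3, where no Emx2 level was well above background (-3.43 at the bounds).

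In the horizontal series no member changed with position by the same limma test, which called 6.57% of all probes; 5 of 8 had an unadjusted p below 0.05, as had 38% of all probes. In other settings Otx1 was called with the slide as a block, and En2 with quantile normalization and among probes well above background on all 22 arrays. En2 ranged from -2.27 in fraction 1 to 1.64 in fraction 3 and -1.41 in fraction 6 (adjusted p = 0.0708). Pax5 was at -1.96 in fraction 2 and -6.88 in fraction 5 (adjusted p = 0.073), where its bound was -5.15. It was not well above background in fractions 4 to 6, and its 3 highest fractions were on the arrays with the low slope. Irx2 and Irx3 were lowest in fraction 1, at -3.37 and -4.18, and between -2.16 and -0.27 in the others. Otx2 was highest in fraction 4, at 2.80, and Six3 in fraction 6, at 0.43.

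In the sagittal series no member passed the linear test (10.2% of all probes) or the quadratic test (0.0303%), with 2 and 5 of 8 members at an unadjusted p below 0.05, against 24% and 14.8% of all probes. The largest quadratic term among the members was that of Irx3, -3.64 log2 units (SE 0.83, adjusted p = 0.0747). Irx2 was at -4.09 in fraction 1, 0.11 in fraction 3 and -1.83 in fraction 6. Irx3 was at -5.00 in fraction 1, not well above background, -0.27 in fraction 4 and -2.51 in fraction 6. En2 was highest in fraction 4, at 1.81, and lowest in fraction 1, at -0.68. Both ends of this series were pooled slabs.

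**Figure D5:**
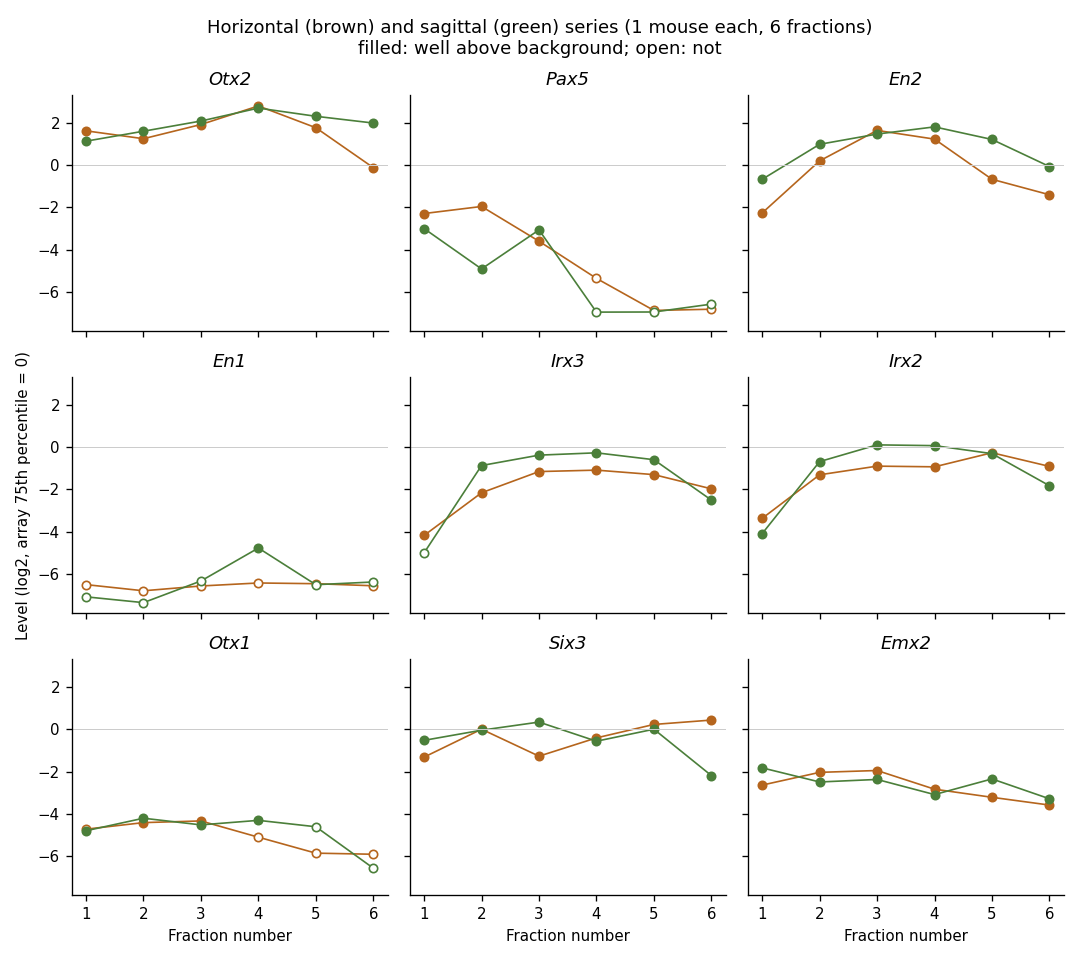
The level of each gene (vertical axis, log2, array 75th percentile = 0) is plotted against fraction number (horizontal axis) in the horizontal series (brown) and the sagittal series (green), 1 array a point, with filled points well above background. Irx2 and Irx3 have their lowest horizontal level in fraction 1, at -3.37 and -4.18.

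The genes most like each member were taken as the 2 with the highest r over the 22 fractions, among 16683 detected genes outside the 9 members. For En2 they were Uncx at 0.98 and Mab21l1 at 0.97, and for Emx2 Nr2e1, an orphan nuclear receptor, at 0.95 and Tbr1, a cortical neuron gene, at 0.94. Irx1, also an Iroquois gene, and Lhx5 led for Irx2 (0.97 and 0.93) and for Irx3 (0.96 and 0.92). Six3 was most like Six3os1 (0.85) and Cables1 (0.77), Otx2 most like St18 (0.84) and Arhgef33 (0.83), and Otx1 most like Nfix (0.79) and Zfp287 (0.75). Pax5 was most like Olfr1006 and Slc16a5 (both 0.97), which were well above background on 9 and 10 arrays. En1 gave Fancc (0.75) and Cryba2 (0.73), from values mostly not above background. Within single series the r of some pairs was far lower. It was 0.28 for Otx2 with St18 and 0.56 for Emx2 with Tbr1 in the sagittal series. In the horizontal series it was 0.29 for Otx1 with Zfp287 and 0.46 for Emx2 with Nr2e1. For the partners of En2, Pax5, Irx2 and Irx3 it was 0.89 or more in every series. With the spike-in level regressed out the leading gene stayed the same for 8 members and became Rassf7 (0.89) for Otx2. By Spearman's rho it changed for 5, namely Otx1, Otx2, Emx2, En2 and Pax5.

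The other genes of the same developmental fields were described by counts. Of 17 forebrain patterning genes, 15 were tested and 11 passed the coronal test, against 19.8% of all probes. In fractions 1 to 3, 10 of the 15 were lower, against 13.9% of all probes, and Pax6, a gene of forebrain and cerebellar progenitors, was higher by 2.80 log2 units. Emx1, the cortical relative of Emx2, went from -4.31 in fraction 3 to -0.22 in fraction 4. Of 14 hindbrain genes tested, 11 passed, against 19.8% of all probes. In fractions 1 to 3, 9 of the 14 were higher and 3 lower, against 13% and 13.9% of all probes. Of the 16 midbrain-hindbrain boundary genes, 14 were tested and 6 passed, all with a negative linear term, as 7.43% of all probes did. Pax3, of the dorsal neural tube, was at 1.13 in fraction 2 and -4.57 in fraction 7 (adjusted p = 0.000935). All 4 other Iroquois genes passed, and Irx1 was at 3.31 in fraction 3 and -1.19 in fraction 9 (adjusted p = 0.00105). The median fitted range was 4.77 log2 units over the 8 members and 0.99 over all probes tested.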

How the data were processed

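Total RNA of the 22 fractions was measured on 1-colour Agilent SurePrint G3 Mouse arrays. The authors used Feature Extraction 10.10.1.1, per the file headers, which gives a background-subtracted processed intensity and, as other columns, flags for outlier and well-above-background spots. A deposited table of log2 values matched that intensity scaled to each array's 75th percentile (99.9% of values within 0.02). Outlier and control spots were left out and spots of a probe averaged, leaving 55600 probes. Each gene was read from its RefSeq probe with the highest median level over 22 arrays, with symbols from a RefSeq table of another assembly, and 26553 probes were named. Between 29605 and 41965 probes an array were well above background. Change was tested with limma 3.58.1 in R 4.3.3, on probes well above background in at least 1 fraction of each series, with linear and quadratic position terms for every series; zones used 3 coronal means. Where a fraction was not well above background, its bound was the higher of its own level and the lowest level of a probe well above background on that array. The tests were tested on simulated data. The planned normexp alternative used median spot signals, the mean signal not being among the columns. The named genes are the members, those of lists fixed by name, and the 2 most alike genes of each member. Hoxb5, Cdhr1, Ttr and Pcp2 come from these lists. The members and lists were chosen with earlier results of these data known. Figures used matplotlib 3.10.9.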

Additional observations from a re-analysis of the deposited data

Results flagged for a closer look

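Of 27 groups (9 genes in 3 series), 4 had a fraction far from the others of its series by Dixon's 95% critical value, and chance marks about 1 in 20 groups. Otx1 in sagittal fraction 6 was at -6.58, against -4.80 in the next lowest fraction, and was not well above background there, with a bound of -4.94, so its distance from the others is not a measured one. Six3 in the same fraction was at -2.19, against -0.57. Irx2 in horizontal fraction 1 was at -3.37, against -1.31. Irx3 in that fraction was at -4.18, against -2.16. Horizontal fraction 1 was among the arrays with a spike-in slope below 0.9, and sagittal fraction 6 pooled 3 slabs and was not. The part of either in these values was not tested.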

How the results depend on the processing

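No paired analysis was possible because the fraction numbers that the series share mark positions on different body axes of different mice. The counts of members called were 7 for coronal position, 0 for horizontal and sagittal position, 5, 1 and 5 in fractions 1 to 3, 4 to 6 and 7 to 10, and 2 of 2 paralog pairs. Among probes well above background on all 22 arrays, 3 members could be tested, and the counts were 3 for coronal position, 1 for horizontal position (En2), and 2, 0 and 2 in the zones. With the slide as a block they were 4 for coronal position, 1 for horizontal position (Otx1), 1 in the sagittal linear term (Otx1), 4 in fractions 1 to 3 (Six3 gained), 2 in fractions 7 to 10 and 1 of the pairs. On the arrays of the tested series alone they were 2 along the coronal series, 3, 0 and 1 in the zones and 0 of the pairs. Using those arrays whose slope was in range they were 5 for coronal position, 1, 0 and 1 in the zones and 0 of the pairs, with fraction 3 alone, assumed to vary like the others, for fractions 1 to 3. Normexp gave 2 in fractions 4 to 6 (Pax5 and Irx3, with Emx2 lost), 1 in the sagittal quadratic term (Irx3) and 1 of the pairs. Quantile normalization gave 1 along the horizontal series (En2), and the next RefSeq probe 1 of the pairs. Leaving out each fraction gave 7 to 8 for coronal position, 0 to 0 for horizontal position and in the sagittal terms, 4 to 6, 0 to 3 and 5 to 5 in the zones, and 1 to 2 of the pairs. On the coronal arrays of slide 1 alone 5 members were called, with Emx2 and En2 lost (adjusted p = 0.0817 and 0.0718). No called direction of a member reversed under any of these settings. The peak fraction moved for 2 members with arrays centred on their median, for 4 with quantile normalization and for 2 with normexp. The onset moved for 1 member with arrays centred on their median, for 4 with quantile normalization and for 2 with normexp. It moved for 4 members when taken within 2 log2 units of the peak and for 5 when taken as the lowest-numbered fraction well above background. The causes of these changes were not tested. Signal over background limits En1, Otx1 and Pax5 most, with 3, 13 and 9 of 22 fractions well above background.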
